A study of Arabidopsis thaliana with 16 samples.

Results

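The double mutant bhlh89,91 was compared with the wild type Col-0 in normal light, gene by gene, in whole flower buds of Arabidopsis thaliana. The comparison used the 4 mutant and the 4 Col-0 normal-light libraries, 8 of the 16 in the series, and every gene with at least 1 CPM (counts scaled to a common library total) in at least 4 of these 8 libraries. This gave 19832 of the 33681 genes in the tables. The mutant carried 2 T-DNA insertions brought together by a cross, SALK-123106 in bHLH89 and GK-345C06 in bHLH91, and its bHLH10 gene was not targeted. Both genotypes were grown with 16 h days, and normal light was a photon flux of 205 ± 8.6 (SD) µmol per square metre per second from the onset of flowering. The other 8 libraries came from the same genotypes under net shading, at 53 ± 5 (SD) of these units. RNA came from buds pooled over anther stages 1 to 10, before pollen mitosis I, so each library holds sepals, petals and carpels beside the anthers. One insertion combination was used, so effects of the 2 genes and of the insertion lines' backgrounds cannot be told apart.

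bHLH89, bHLH91 and bHLH10 are basic helix-loop-helix transcription factors with overlapping roles, made mainly in the tapetum. The tapetum is the innermost anther wall layer: it feeds the developing microspores, supplies the precursors of the pollen wall and then dies. The known tapetal cascade runs from DYT1 through TDF1 and AMS to MS188 and MS1, and the bHLH10 group can pair with DYT1 and AMS.

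The 4 Col-0 libraries held 21961751 to 23164306 estimated counts and the 4 mutant libraries 20419619 to 22133150, so depth differed little. The log2-CPM values correlated at 0.980 to 0.993 within the genotypes, and no pair of libraries agreed within sampling noise. The first principal component of the 8 libraries (49.5% of the variance) separated the genotypes. Libraries are named here by the number of their table column. Mutant library 4 stood apart on the second component (15.8%), at -36.7 against 5.62 to 9.03 for the other mutant libraries. Col-0 library 4 lay at -43.2 on the first component, where the other Col-0 libraries lay at -24.3 to -15.9. Col-0 library 3 held more transcripts of late pollen genes: VGD1, a pollen pectin methylesterase, had 12.8 TPM there (a level scaled for transcript length and for the library total) and 0.60 to 2.65 TPM in the other 3. Col-0 library 3 was the highest of the 8 for 12 of the 28 genes looked up on the late pollen list, of which 11 reached the level for the test. Summed over the 28 it held 372 TPM, against 299 to 329 TPM in the other Col-0 libraries and 340 to 353 TPM in the mutant. The share of all genes that were highest in this library was not counted.

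Reads assigned to both targeted genes were fewer in the mutant, and some remained. bHLH89 (AT1G06170) had 48.4, 51.3, 41.5 and 42.5 TPM in Col-0 against 22.7, 24.5, 23.2 and 18.6 TPM in the mutant. All 4 mutant libraries lay below all 4 Col-0 libraries, and the mutant mean was 48.5% of that of Col-0 (log2 fold change, log2FC, -1.03, SE 0.13, edgeR adjusted p = 8.03e-05). bHLH91 (AT2G31210) had 34.6, 30.7, 29.0 and 26.1 TPM in Col-0 against 21.4, 22.3, 25.5 and 22.0 TPM in the mutant. The groups again did not overlap, and the mutant kept 75.7% of the Col-0 level (log2FC -0.39, SE 0.12, edgeR adjusted p = 0.0311). The bHLH91 call was lost when Col-0 library 1 or 2, or mutant library 1, 2 or 4, was left out, with log2FCs of -0.39 to -0.33 and edgeR adjusted p-values of 0.0578 to 0.0921. bHLH10 (AT2G31220), the intact gene of the trio, had 82.7 ± 6.01 TPM in Col-0 against 82.8 ± 9.92 TPM in the mutant (SD, n = 4 each), and the groups overlapped (log2FC 0.02, SE 0.11, edgeR adjusted p = 0.942). bHLH10 was the most abundant of the 3 by TPM in both genotypes. A gene total sums all transcript models, and reads from either side of an insertion can enter it, so these levels do not show whether any intact transcript was made.

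The primer pairs that the study designed to measure the 2 targeted transcripts show which exon its PCR assay read. They are printed 5′ to 3′ with positions from an exact match to the TAIR10.1 genome, where each has 1 match:
bHLH89 forward: ccttgagatgctcatggctca
bHLH89 reverse: tggtgctctccgatttgtgc
bHLH91 forward: gaagaagccggagagcgatg
bHLH91 reverse: ctccggcaacatggtgaaga
The bHLH89 forward primer lies at chr1:1885532-1885552 on the minus strand and its partner at chr1:1885363-1885382 on the plus strand, both in exon 3 of 4 of bHLH89. The bHLH91 forward primer lies at chr2:13297676-13297695 on the plus strand and its partner at chr2:13297874-13297893 on the minus strand, both in exon 3 of 4 of bHLH91. The study places both insertions in the first exon, so each pair reads a single exon away from the insertion, while the TPM values above read the whole gene. By PCR on inflorescences in normal light, the study reports both transcripts far lower in this mutant, relative to the wild type, than these TPM values.

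**Figure D1:**
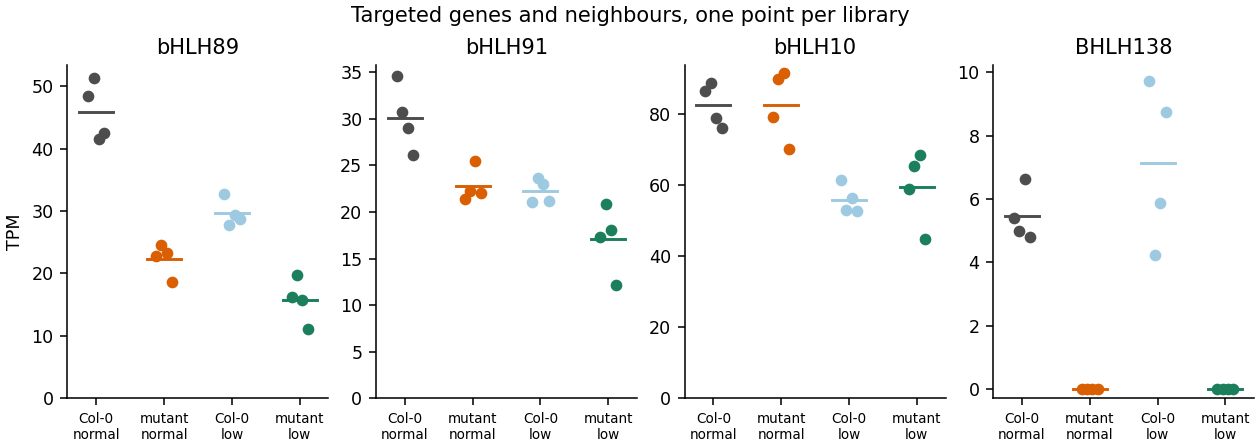
Level in TPM (linear axis) of bHLH89, bHLH91, bHLH10 and BHLH138 in the 4 groups, with 1 point for each library and a line at the group mean. bHLH89 in normal light falls from 45.9 to 22.3 TPM, bHLH91 from 30.1 to 22.8 TPM and bHLH10 stays at 82.7 and 82.8 TPM, while BHLH138 is at 0 in every mutant library.

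BHLH138 (AT2G31215), a further bHLH gene that lies between bHLH91 and bHLH10, was read in Col-0 and in no mutant library. It had 5.39, 4.97, 6.64 and 4.79 TPM in Col-0, from 16 to 22 counts in a library, and 0 in all 4 mutant libraries. Set against a floor of 3 counts per library, its level was at least 5.74-fold lower in the mutant. It did not reach 1 CPM in 4 libraries, so it has no test. In low light it had 14 to 31 counts in the Col-0 libraries and again 0 in the mutant. Of the 20 genes within 5 places of bHLH89 and bHLH91, 16 were tested and 2 were higher at an adjusted p under 0.05, near the share over all genes (9.59%). These were ADF6, an actin-depolymerising factor beside bHLH91 (log2FC 0.30, edgeR adjusted p = 0.00268), and MYB13 beside bHLH89 (log2FC 0.33, edgeR adjusted p = 0.0451). The 2 genes were named because the count was small, after their values were seen.

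Across the 19832 genes, 303 differed at an adjusted p under 0.01 with an absolute log2FC of at least 1 (DEGs), which is 1.53% of those tested. They split into 171 genes higher in the mutant (0.862%) and 132 lower (0.666%). The median log2FC was 1.45 for the DEGs that were higher (range 1.00 to 7.49) and -1.52 for those that were lower (range -5.69 to -1.01). Among the higher DEGs, 39 reached a log2FC of 2 and 12 a log2FC of 4, against 34 and 2 of the lower DEGs for the same sizes of fall. In 288 of the 303 DEGs no mutant library overlapped a Col-0 library, where 21.5% of all tested genes did not overlap. The DEGs were picked on these same libraries, so their lack of overlap is not separate evidence. At an adjusted p under 0.05 with no fold limit, by which the gene lists are judged throughout, 1901 genes were higher (9.59%) and 1589 were lower (8.01%), and the median over all genes was -0.00067. Without Col-0 library 4 the DEGs numbered 212, and without mutant library 4 they numbered 326, so 208 and 265 of the 303 remained. Whole buds were sampled, so for every gene fewer cells of a type and less RNA per cell cannot be told apart.

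The deepest falls among DEGs averaging 5 CPM or more came from a carbonic anhydrase, a SKU5-similar gene and a group of transcripts known to rise when plant cells run short of sugar. Only DEGs whose groups did not overlap entered this ranking, so the lack of overlap in its genes is not a separate result. ACA5 (AT1G08065), an alpha carbonic anhydrase, had 71.6, 67.4, 50.5 and 50.9 TPM in Col-0 against 1.51, 1.03, 1.21 and 0.850 TPM in the mutant. Every mutant library was far below every Col-0 library (log2FC -5.68, SE 0.19, edgeR adjusted p = 3.25e-11). sks14 (AT1G55560), of the SKU5-similar family of multicopper oxidase-like wall proteins, had 38.5, 31.0, 32.8 and 25.8 TPM in Col-0 against 2.54, 3.66, 3.48 and 1.04 TPM in the mutant. It too was low in all 4 mutant libraries (log2FC -3.55, SE 0.26, edgeR adjusted p = 8.7e-07). ICL, the isocitrate lyase of the glyoxylate cycle, had 8.12, 6.13, 6.93 and 4.41 TPM in Col-0 against 0.830, 1.31, 1.23 and 0.460 TPM in the mutant, again without overlap (log2FC -2.71, edgeR adjusted p = 4.45e-05). BXL1, a cell wall xylosidase, fell with a log2FC of -2.88 (edgeR adjusted p = 0.00014). AT3G57620, annotated as a glyoxal oxidase-related protein, fell with a log2FC of -2.52 (edgeR adjusted p = 2.83e-05).

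Sugar starvation transcripts were low as a group. These genes are held down by sucrose and rise in darkness or hunger, and they serve the use of amino acids and stored sugars. Of the 11 on the list, 10 were tested, and all 10 were lower at an adjusted p under 0.05, where 8.01% of all genes were lower. Their median log2FC was -0.78 against -0.00067 over all genes, and 3 were DEGs. Summed over the list, the libraries held 389 to 694 TPM in Col-0 against 177 to 234 TPM in the mutant, without overlap. ASN1 (DIN6), an asparagine synthetase that stores nitrogen when carbon is short, had 123, 116, 125 and 181 TPM in Col-0 against 46.2, 41.4, 51.9 and 31.2 TPM in the mutant. Its level was lower in each mutant library than in any Col-0 library (log2FC -1.66, edgeR adjusted p = 0.000217).

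In several of these genes the fall was enlarged by Col-0 library 4. SEN1, a dark-inducible senescence marker, had 19.1, 15, 17.0 and 76.3 TPM in Col-0 against 4.14, 1.98, 4.00 and 0.714 TPM in the mutant (log2FC -3.53, SE 0.67, edgeR adjusted p = 0.00243). Without Col-0 library 4 its log2FC was -2.61 (edgeR adjusted p = 0.00495), and without mutant library 2 its adjusted p was 0.0101, just outside the DEG limit. DIN10, a raffinose synthase-like gene, had 39.5, 39.7, 39.9 and 170.0 TPM in Col-0 against 10.8, 8.05, 9.63 and 5.91 TPM in the mutant (log2FC -3.08, SE 0.57, edgeR adjusted p = 0.00198). Without that library its log2FC was -2.18 (edgeR adjusted p = 0.00449). The other 3 Col-0 libraries of both genes still lay above all mutant libraries. With Col-0 library 4 left out, 8 of the 10 members were lower, with mutant library 4 left out 8, and with both left out 6.

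The remaining members moved less. DIN3 and DIN4, of the branched-chain keto acid dehydrogenase, had log2FCs of -0.16 and -0.61, and BCAT2, a branched-chain aminotransferase, had -0.64, a call lost in 16 of 28 alternatives. The 4 trehalose-phosphate synthase-like genes were lower as well, TPS8 by a log2FC of -0.90, TPS9 by -0.83, TPS10 by -0.56 and TPS11 by -0.73. In the low-light libraries the 10 members were again all lower at an adjusted p under 0.05, where 25.2% of all genes were. Their median log2FC there was -1.34.

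**Figure D2:**
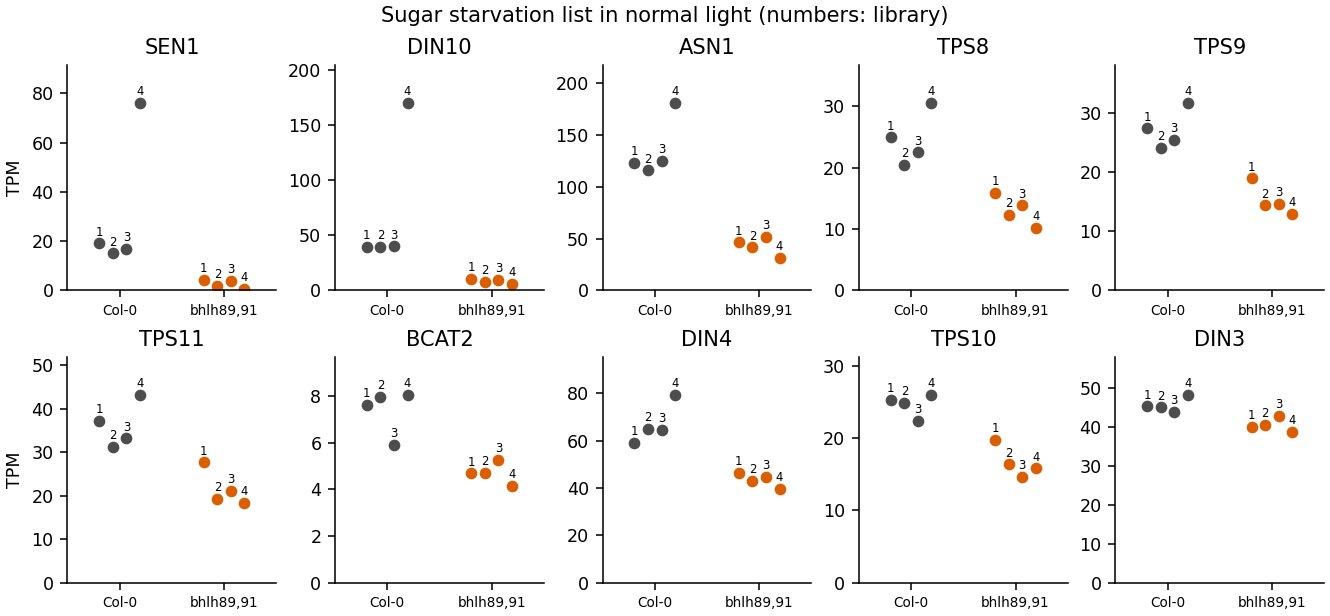
Level in TPM (linear axes from 0, 1 panel per gene) of the 10 tested sugar starvation genes in the 8 normal-light libraries, with each point numbered by its library and the genotypes in separate colours. All mutant points lie below those of Col-0 in ASN1, SEN1 and DIN10, and Col-0 library 4 lies far above the other Col-0 libraries in SEN1 (76.3 TPM) and DIN10 (170.0 TPM).

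Among the other 12 deepest falls were genes not on that list that shared its spread over libraries. BT5, a BTB and TAZ domain protein, had 17.0, 11.3, 15.7 and 70.6 TPM in Col-0 against 4.87, 2.33, 2.88 and 2.43 TPM in the mutant (log2FC -3.19, SE 0.57, edgeR adjusted p = 0.00166). Its log2FC was -2.20 without Col-0 library 4. AT3G15450, an aluminium-induced protein with a YGL motif, was among the most abundant, at 740, 595, 705 and 1894 TPM in Col-0 against 206, 82.4, 117 and 74.1 TPM in the mutant (log2FC -3.03, edgeR adjusted p = 0.00026). The kelch repeat gene AT1G80440 had a more even 45.1, 37.1, 42.0 and 59.2 TPM in Col-0 against 6.34, 3.1, 7.04 and 3.34 TPM in the mutant (log2FC -3.19, edgeR adjusted p = 9.41e-06). MIOX2, a myo-inositol oxygenase, and AT2G33830, a dormancy and auxin associated protein, fell with log2FCs of -2.74 and -2.72, which became -2.17 and -2.38 without Col-0 library 4. In limma-voom SEN1, BT5, MIOX2 and AT2G33830 were no longer DEGs (adjusted p = 0.0389, 0.0241, 0.010 and 0.064). Picked after their values were seen, the DEGs ERD5, the proline dehydrogenase that breaks down proline (log2FC -2.44), DYL1, a dormancy-associated protein (log2FC -2.33), SIP2, a raffinose-degrading galactosidase (log2FC -2.30), and BMY3, a beta-amylase (log2FC -1.45), were also lower.

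The largest rises among DEGs averaging 5 CPM or more came from genes that were almost silent in Col-0. Here too, in this paragraph and the next, the ranking took only DEGs whose groups did not overlap. WAK3, a wall-associated kinase, had 0.0933, 0.196, 0.0734 and 0.0467 TPM in Col-0 against 18.9, 21.0, 25.8 and 10.9 TPM in the mutant (log2FC 7.49, SE 0.51, edgeR adjusted p = 5.4e-07). AT1G75945, a gene of no assigned function, had 0, 0.673, 0.627 and 0.864 TPM in Col-0 against 89.2, 86.3, 97.5 and 111 TPM in the mutant (log2FC 7.41, SE 0.25, edgeR adjusted p = 3.25e-11). In both genes each mutant library stood far above every Col-0 library. QQS, a gene found in no other species that affects starch content, had 1.26, 14.3, 4.29 and 3.93 TPM in Col-0 against 106, 332, 357 and 152 TPM in the mutant (log2FC 5.34, SE 0.63, edgeR adjusted p = 5.75e-05). QQS varied within each genotype but did not overlap between them. PBP1, a jacalin-type lectin that binds a myrosinase-like beta-glucosidase, had 1.19, 0.441, 1.15 and 1.19 TPM in Col-0 against 31.2, 29.5, 35.5 and 12.9 TPM in the mutant, with mutant library 4 lowest (log2FC 4.78, edgeR adjusted p = 2.39e-06).

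Further rises were carried unevenly by the mutant libraries. The peroxidase gene AT4G36430 had 1.29, 1.80, 1.14 and 1.56 TPM in Col-0 against 14.7, 16.7, 15.9 and 91.4 TPM in the mutant (log2FC 4.57, edgeR adjusted p = 0.00013). The F-box gene AT1G31080 had 16.8, 20.6, 23.4 and 2.47 TPM in the mutant (log2FC 3.98, edgeR adjusted p = 0.000349), against 0.777 to 1.52 TPM in Col-0, and was no longer a DEG in limma-voom (adjusted p = 0.0326). Mutant library 4 was thus the highest library for the peroxidase and the lowest for the F-box gene, and the groups did not overlap in either. AT3G29644 and AT3G22620 rose with log2FCs of 3.34 and 3.32, and AT4G20390 with 2.15. cPT9, a cis-prenyltransferase, had 14.9, 22.6, 23.5 and 6.60 TPM in Col-0 against 81.5, 78.5, 91.8 and 41.2 TPM in the mutant (log2FC 2.14, edgeR adjusted p = 0.000468). GPT2, which carries glucose phosphate into plastids and is induced by sugar, had 2.12, 1.56, 1.58 and 1.2 TPM in Col-0 against 8.21, 10.6, 8.93 and 19.0 TPM in the mutant, without overlap (log2FC 2.86, edgeR adjusted p = 2.7e-05).

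**Figure D3:**
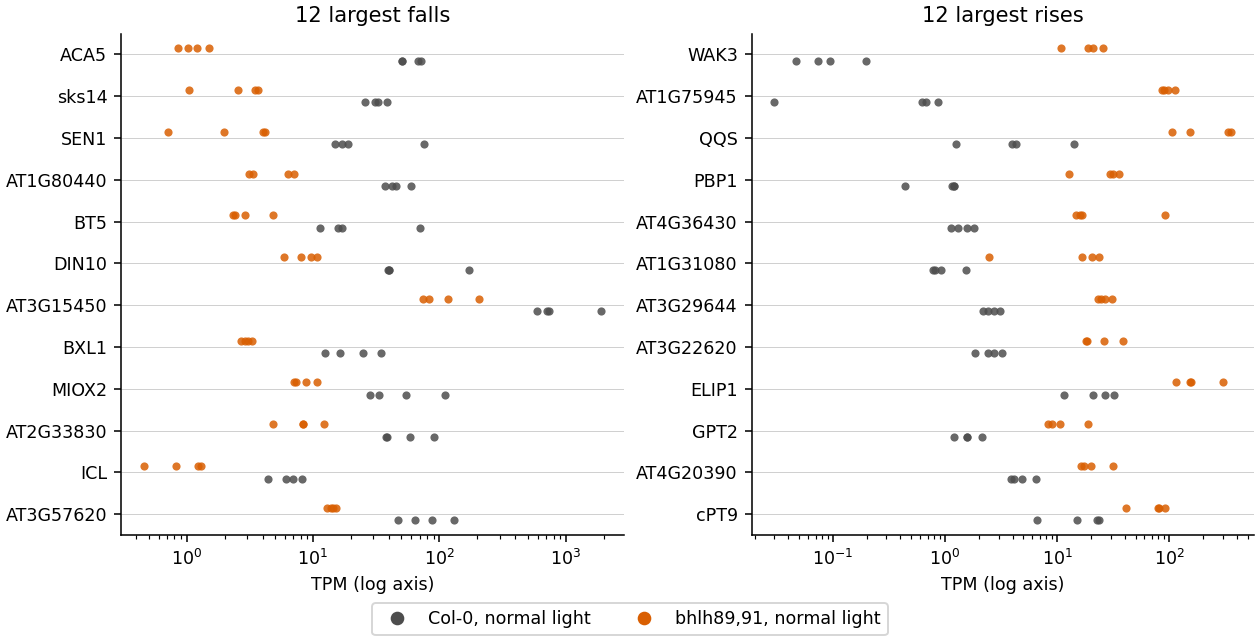
Level in TPM (log axis) of the 12 DEGs with the deepest falls and the 12 with the largest rises in normal light, both among DEGs averaging 5 CPM or more whose libraries did not overlap, with 1 point for each Col-0 and mutant library. No gene's groups overlap, which the rule for naming them required; ACA5 falls from 50.5 or more to 1.51 TPM or less, WAK3 rises from 0.196 or less to 10.9 or more, and the Col-0 library with 0 TPM of AT1G75945 is drawn at the left edge.

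A set of 11 genes had at most 3 counts in each library of one genotype and at least 10 in each of the other. Only 4 of the 11 reached the level needed for the test, so they are given as counts. Silent in the mutant, beside BHLH138, were AT1G61230 with 46 to 79 counts in Col-0 and 0 to 2 in the mutant (at least 19.2-fold lower against 3 counts per library), AT5G23160 with 11 to 33 and 0 to 3 (at least 7.07-fold) and AT4G11390 with 10 to 15 and 0 (at least 4.23-fold). Silent in Col-0 were 7 genes. AT3G29635 had 0 or 1 count in Col-0 and 23 to 52 in the mutant (at least 12-fold higher), AT3G59930 had 0 or 1 and 28 to 37 (11.7-fold), and MYB89, a MYB transcription factor, had 2 or 3 and 15 to 44 (11.6-fold). AT1G68850, a peroxidase gene, had 0 or 1 and 23 to 48 (11.2-fold), and AT1G52440, AT5G60530 and AT4G14819 were at least 7.91, 6.93 and 4.75-fold higher. Among all DEGs, 12 pairs were direct neighbours on a chromosome, and 10 of the pairs moved in the same direction. Some genes stood in more than 1 pair, and the same counts over all neighbouring genes were not made, so these counts cannot be judged.

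No factor of the tapetal cascade passed the test as lower, and those at its start and centre were higher. AMS, the bHLH factor that turns on wall and lipid genes in the tapetum, had 240, 241, 212 and 212 TPM in Col-0 against 386, 361, 358 and 259 TPM in the mutant. All mutant libraries lay above Col-0, with mutant library 4 the nearest (log2FC 0.61, SE 0.14, edgeR adjusted p = 0.0082). DYT1, the first factor of the cascade, had 9.94, 13.4, 8.80 and 8.89 TPM in Col-0 against 11.6, 17.5, 20.14 and 15.6 TPM in the mutant (log2FC 0.68, SE 0.23, edgeR adjusted p = 0.0497). The DYT1 libraries overlapped, and its call was lost in 18 alternatives: without Col-0 library 1, 3 or 4 or mutant library 2, 3 or 4 its log2FC was 0.54 to 0.70, with edgeR adjusted p-values of 0.066 to 0.152. TDF1, MS188 and MS1 did not pass, with log2FCs of 0.30, -0.35 and 0.30 (edgeR adjusted p = 0.195, 0.219 and 0.393). Thus 2 of the 5 factors were higher and none lower, against 9.59% higher over all genes, and 1 was higher without Col-0 library 3, Col-0 library 4 or mutant library 4.

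Genes that act in the anther wall and pollen wall moved in both directions. Over all genes 9.59% were higher and 8.01% lower, and the shares of these small lists are to be read beside those. Of 9 sporopollenin synthesis genes, 2 were lower and none higher, with a median log2FC of 0.02, and 1 was lower without mutant library 4. MS2, a fatty acyl reductase for the pollen exine, had 561, 404, 431 and 342 TPM in Col-0 against 272, 303, 292 and 178 TPM in the mutant, without overlap (log2FC -0.72, edgeR adjusted p = 0.0233). LAP5, a polyketide synthase of the same path, had 479, 482, 465 and 389 TPM in Col-0 against 283, 343, 252 and 316 TPM in the mutant, also without overlap (log2FC -0.59, edgeR adjusted p = 0.0239). The MS2 call was lost without mutant library 4 or Col-0 library 1, and the LAP5 call without Col-0 library 1 or 2 or mutant library 1 or 3, with adjusted p-values up to 0.0744 and 0.0717. Among 8 genes of the callose wall and primexine, QRT3, a polygalacturonase that frees microspores from the tetrad, was higher (log2FC 0.67, edgeR adjusted p = 0.00685). CALS5, the callose synthase of the tetrad wall, was lower (log2FC -0.40, edgeR adjusted p = 0.0269). Of 15 genes that specify the early anther, 4 were lower and none higher: TGA10 with a log2FC of -0.47, ROXY2 with -0.68 (lost in 16 of 28 alternatives), the receptor kinase EMS1 with -0.22 and ER with -0.17. Of 23 meiosis genes 2 were lower, near the share over all genes: ASY1 and MMD1, with log2FCs of -0.35 and -0.45. Without Col-0 library 4 none of the meiosis genes and 2 of the early anther genes were lower, and the same counts held without mutant library 4. The call of CALS5 was lost in each of these cases.

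Few genes of the late tapetum passed the test. The pollen coat list of oleosin-type GRP and EXL lipase genes had 12 tested members, all with a positive log2FC and a median of 1.02, but only 3 were higher at an adjusted p under 0.05: GRP18 (1.81), EXL1 (0.50) and EXL2 (0.61). Summed over the list, the libraries held 134, 277, 757 and 76.5 TPM in Col-0 against 432, 948, 737 and 168 TPM in the mutant, so the groups overlapped widely. In both genotypes library 4 was the lowest, and Col-0 library 3, the Col-0 library with the most VGD1, was the highest of Col-0. Without Col-0 library 3, 7 members were higher, and without Col-0 library 4, 2 were, where 9.59% of all genes were higher. The part of bud stage in this result was not tested. The 4 spermidine phenolamide genes had a median of 1.07 with CYP98A9 alone higher (log2FC 2.0, edgeR adjusted p = 0.0443), a call lost in 14 of 28 alternatives, limma-voom included. Without Col-0 library 4 none of the 4 was higher (CYP98A9 log2FC 1.73, edgeR adjusted p = 0.12), and without mutant library 4, 3 were. Of 23 genes that the study singled out on these same samples, which makes their direction no independent evidence, 19 were tested and 3 were higher, ABCG9, CYP98A9 and GASA10. Without Col-0 library 4, Col-0 library 3 or mutant library 4, 2, 5 and 7 of the 19 were higher. On the late pollen list 11 genes were tested, and whether each of them is made late in pollen was not examined. The sugar carrier STP2 was higher (log2FC 1.07, edgeR adjusted p = 0.0406). VGD1 was lower (log2FC -3.37, edgeR adjusted p = 0.0394). The STP2 call was lost in 15 of 28 alternatives, among them limma-voom and leaving out Col-0 library 3 (edgeR adjusted p = 0.0614) or Col-0 library 4 (edgeR adjusted p = 0.116). VGD1 rests on the 12.8 TPM of Col-0 library 3: without it the log2FC was -2.03 (edgeR adjusted p = 0.185).

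Flavonoid genes were higher as a group. They make the flavonols and anthocyanins that colour tissues and screen light. Of 13 tested, 9 were higher and none lower, with a median log2FC of 0.58, where 9.59% of all genes were higher. TT4, the chalcone synthase at the entry, had 524 to 866 TPM in Col-0 against 1000 to 1051 TPM in the mutant (log2FC 0.58, edgeR adjusted p = 0.0157). TT5, the chalcone isomerase, rose with a log2FC of 0.82, F3H, a flavanone hydroxylase, with 0.68, and FLS1, the flavonol synthase, with 0.63. TT7, a further hydroxylase, rose with a log2FC of 1.12 (edgeR adjusted p = 5.12e-05) and LDOX, the anthocyanidin synthase, with 1.86 (edgeR adjusted p = 0.000169). The flavonol regulators MYB11 and MYB12 and the glycosyltransferase UGT78D1 were higher with log2FCs of 1.3, 0.37 and 0.44. With Col-0 library 4 left out 8 members were higher, and with both libraries 4 left out 7.

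Transcripts of light-stress proteins rose, and photoreceptor genes showed small falls, most of which did not hold in every alternative. ELIP1, an early light-induced protein that binds chlorophyll under strong light, had 32.0, 26.5, 20.9 and 11.6 TPM in Col-0 against 299, 153, 114 and 157 TPM in the mutant. Every mutant library was above every Col-0 library (log2FC 3.01, SE 0.34, edgeR adjusted p = 3.6e-05). ELIP2 was higher with a log2FC of 1.69 and HYH, a light-signalling bZIP factor, with 1.45, and SPA1, a repressor of light signalling, with 0.51. CRY1, CRY2 and PHYA, receptors of blue and far-red light, were lower with log2FCs of -0.21, -0.36 and -0.21, as were PIF1 with -0.34 and BBX21 with -0.32. The PHYA call was lost in 14 of 28 alternatives and the CRY1 call in 5, both of them without Col-0 library 4 (edgeR adjusted p = 0.0982 and 0.0755), while CRY2 kept its call in all 28. The list of 20 genes thus had 4 higher and 5 lower with a median of 0.06, where 9.59% and 8.01% of all genes were called, and without Col-0 library 4 there were 4 and 2, without mutant library 4 there were 6 and 3. Of 39 photosynthesis genes 4 were higher and 2 lower (median 0.04), close to the shares over all genes, with LHCB1.4, a light-harvesting protein, furthest down (log2FC -1.31, edgeR adjusted p = 0.00693). Without Col-0 library 4 there were 2 higher and 1 lower photosynthesis genes, without Col-0 library 3 there were 3 and 1, and without mutant library 4 there were 8 and 1.

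Clock genes differed by their time of day. LHY, which peaks at dawn, had 35.9, 30.8, 22.3 and 22.7 TPM in Col-0 against 91.0, 66.1, 52.3 and 44.3 TPM in the mutant, without overlap (log2FC 1.2, edgeR adjusted p = 0.000723). CCA1, its partner, had 17.1, 11.8, 11.6 and 11.8 TPM in Col-0 against 55.6, 34.6, 28.5 and 19.6 TPM in the mutant, also without overlap (log2FC 1.42, edgeR adjusted p = 0.00141). In both genes mutant library 1 was the highest and mutant library 4 the lowest of the mutant. RVE8 was higher too, so 3 of 5 morning genes passed, against 9.59% of all genes, with a median log2FC of 1.2. Of 5 evening genes 3 were lower, PRR5 (log2FC -1.19, edgeR adjusted p = 0.000248), ELF3 (-0.45) and TOC1 (-0.28), against 8.01% of all genes. The TOC1 call was lost in 11 of 28 alternatives, among them limma-voom and leaving out Col-0 library 4 (edgeR adjusted p = 0.127) or mutant library 4 (edgeR adjusted p = 0.0666). The hour of harvest was not analysed here, and its part in these differences was not tested.

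Floral organ and carpel genes showed small rises of several members. Of 9 floral organ identity genes 5 were higher and none lower, against 9.59% higher over all genes, with log2FCs of 0.34 for AP2, 0.26 for AP3, 0.17 for PI, 0.22 for SEP1 and 0.21 for SEP2. The PI call was lost in 11 of 28 alternatives, among them leaving out Col-0 library 3 or 4 or mutant library 4, with edgeR adjusted p-values of 0.0536, 0.0746 and 0.0607. Of 13 carpel and ovule genes 4 were higher and 1 was lower, with a median of 0.32. BEL1, an ovule homeobox gene, had 6.84, 7.53, 7.58 and 5.99 TPM in Col-0 against 11.2, 12.2, 11.8 and 10.4 TPM in the mutant (log2FC 0.72, edgeR adjusted p = 0.00186). STK, the ovule MADS gene, rose with a log2FC of 0.67, HEC2 with 0.46 and FUL with 0.33. CRC, which shapes the carpel and nectary, was the exception (log2FC -0.49, edgeR adjusted p = 0.00239). The part of the share of carpel and petal tissue in these libraries in any other result was not tested.

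DNA replication genes were slightly lower in the mutant. Of the 12, 8 were lower, against 8.01% of all genes, and all 12 had a negative log2FC, with a median of -0.21. MCM5, of the replicative helicase, had 56.2, 57.6, 56.1 and 53.8 TPM in Col-0 against 46.0, 47.6, 43.6 and 52.3 TPM in the mutant (log2FC -0.23, edgeR adjusted p = 0.00272). PCNA2, the sliding clamp, had 69.4, 78.0, 74.0 and 76.4 TPM in Col-0 against 52.5, 58.9, 58.5 and 65.3 TPM in the mutant (log2FC -0.33, edgeR adjusted p = 0.00395). Mutant library 4 lay nearest to Col-0 in both, and the groups did not overlap. Both genes kept their calls in all 28 alternatives. The calls of MCM2, MCM3 and ORC1B were lost in 8, 9 and 6 of the 28. Across methods 5 to 8 members of the list were lower. None of 18 mitotic cell cycle genes passed in edgeR's test (4 had an unadjusted p under 0.05), nor in DESeq2 or limma. In low light the 12 replication genes were all higher at an adjusted p under 0.05 (median log2FC 0.62), where 25.3% of all genes were. All 12 also had an interaction of genotype and light at an adjusted p under 0.05, where 24.1% of all genes had one.

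Hormone, transport and nutrient genes changed in part, and their counts stand against 9.59% of all genes higher and 8.01% lower. Of 22 Aux/IAA genes, repressors of the auxin response, 6 were higher (IAA3, IAA7, IAA13, IAA17, IAA19 and IAA33) with a median of 0.14 over the list, and 2 remained higher without Col-0 library 4. Of 6 GH3 genes, which conjugate auxin to amino acids, GH3.2, GH3.5 and GH3.9 were lower and GH3.6 was higher. The GH3.9 call was lost in 13 of 28 alternatives, limma-voom among them, and the GH3.6 call in 3. The sugar exporters SWEET1, SWEET2, SWEET4 and SWEET13 and the cell wall invertase CWINV4 were higher, while SWEET7 (log2FC -0.84) and the sucrose carrier SUC1 (log2FC -0.67) were lower. SWEET13 rose most of these (log2FC 1.32, edgeR adjusted p = 0.00642). Of 16 sugar transport genes tested, 5 were thus higher and 2 lower, and 3 and 2 without Col-0 library 4. Of 8 phosphate starvation genes SPX1, SPX2, SQD2 and PAP17 were higher, with a median of 0.43. The SQD2 call was lost in 21 of 28 alternatives, among them DESeq2, RLE factors and the fit of the 8 libraries alone. In the copper and iron list of 22, the iron transporter IRT1 (log2FC 3.73) and the copper chaperone CCH (log2FC 1.35) were higher. YSL1 was lower (log2FC -0.90), and without Col-0 library 3 there were 4 higher and 3 lower. IRT1 was near the floor in Col-0, with 0 to 27 counts in a library against 24 to 192 in the mutant, and its groups overlapped. Of 24 jasmonate genes only LOX6 was called (lower), and of 13 salicylic acid and defence genes only WRKY70 (lower), a call lost without Col-0 library 4. Without mutant library 4 there were 1 higher jasmonate gene and 2 lower defence genes. Over all 38 lists, 430 genes were tested, 64 were higher (14.9%) and 59 lower (13.7%), against 9.59% and 8.01% of all genes.

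**Figure D4:**
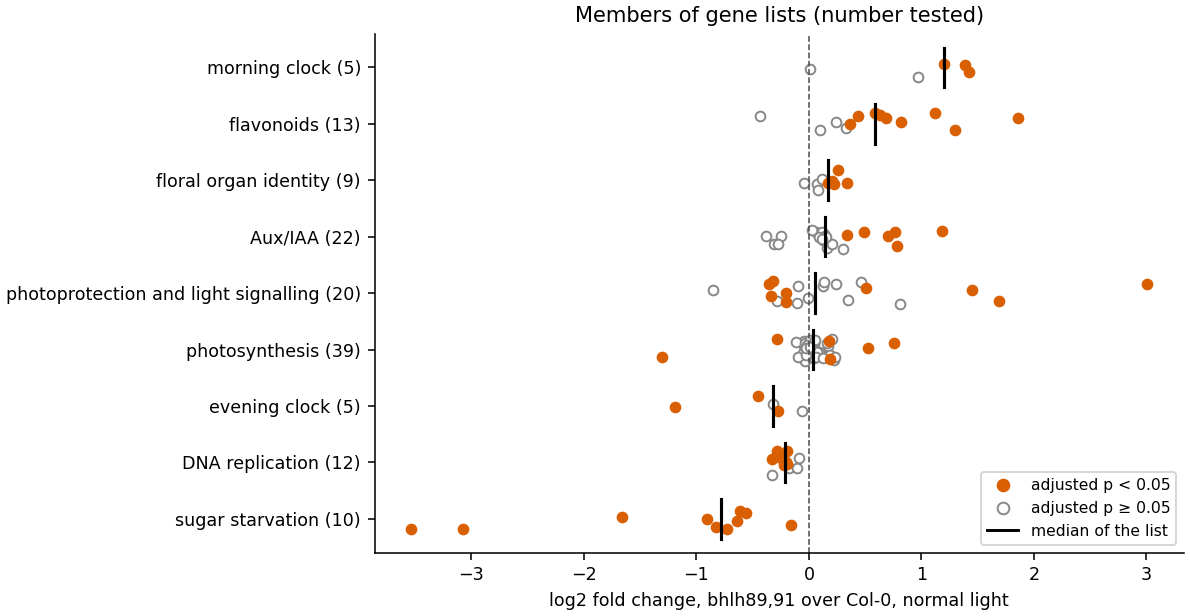
log2FC (bhlh89,91 over Col-0 in normal light) of every tested member of 9 gene lists, with 1 point per gene, filled where the adjusted p is under 0.05, a black line at the list median and a dashed line at the median of all genes. All 10 sugar starvation genes are filled and below 0, 9 of 13 flavonoid genes are filled and above 0, and the 12 DNA replication genes lie just below 0.

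The low-light libraries gave a separate look at the 303 DEGs, since their means do not enter the normal-light contrast, although the fit shares 1 estimate of the spread. In low light 275 of the 303 (90.8%) had the same direction, where 64.7% of all tested genes did. At an adjusted p under 0.05, 244 (80.5%) were called in the same direction, 12 (3.96%) in the opposite direction and 47 were not called. Over all tested genes 36.6% were called in low light with the same sign as in normal light and 14.0% with the opposite sign. Over all genes, low light had 25.3% called higher and 25.2% called lower. The median log2FC of the DEGs that were higher went from 1.45 in normal to 1.23 in low light, and that of the lower DEGs from -1.52 to -1.23. These genes were chosen by their size in normal light, so the medians cannot be compared as sizes of effect. An interaction at an adjusted p under 0.05 was found in 69 of the 303, where 24.1% of all genes had one.

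A smaller set of 12 DEGs (3.96%) was called in opposite directions in the 2 light conditions. Over all tested genes, 14.0% had a low-light call with a sign opposite to that in normal light. NAC025, a NAC transcription factor, had 15.9, 42.2, 26.6 and 7.85 TPM in Col-0 against 89.8, 84.5, 84.8 and 35.6 TPM in mutant buds (normal-light log2FC 1.70), and its low-light log2FC was -2.28. Library 4 was the lowest of each genotype, and its value of 35.6 TPM in the mutant fell within the Col-0 range. KAT1, an inward potassium channel, had log2FCs of 1.76 and -2.5, and cPT9 had 2.14 and -0.93. The other 9 were FTM1, AT1G49405, AT2G03740, AT3G28540, PAP22, ERF6, IRT1, sks10 and AT5G48210. KAT1 and NAC025 and these 9 were named for the small count, after their values were seen.

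**Figure D5:**
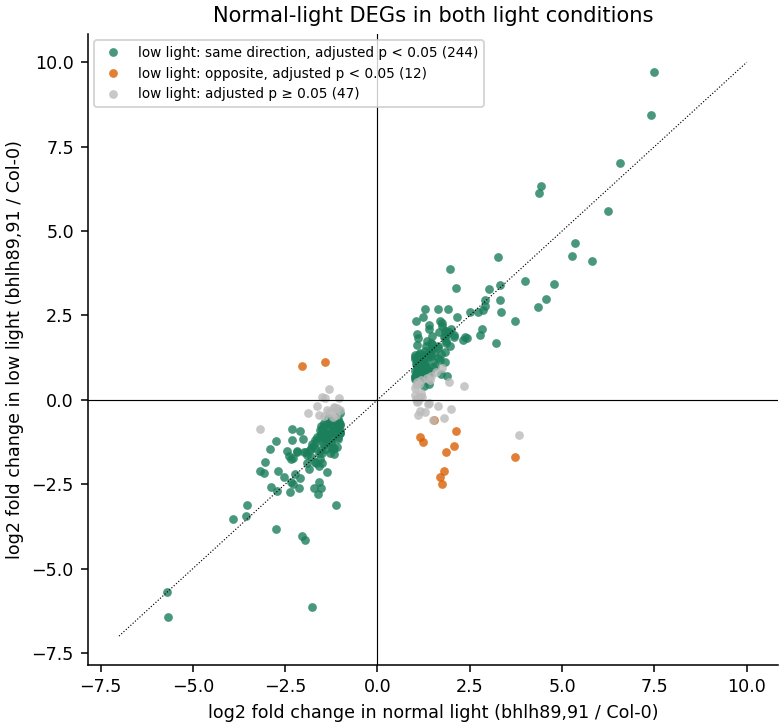
log2FC of bhlh89,91 over Col-0 in low light (vertical axis) against that in normal light (horizontal axis) for the 303 normal-light DEGs, with 1 point per gene and colours for the low-light call. In 244 genes the low-light call has the same direction, in 12 the opposite, and 47 are not called in low light.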

How the data were processed

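Poly-A RNA from buds was sequenced as 100 bp paired reads on a BGISEQ-500. The authors quantified reads with Salmon against AtRTD2 and deposited length-scaled estimated counts per gene (tximport). The authors also deposited TPM for the same genes. Estimated counts were rounded and tested with edgeR 4.0.16 in R 4.3.3 (TMM, quasi-likelihood F test, Benjamini-Hochberg adjustment over 19832 genes). All 16 libraries were fitted with 1 mean per group, leaving 12 residual degrees of freedom. SEs were obtained from the log2FC and the F statistic (their size is log2FC over the root of F). Lists were judged at an adjusted p under 0.05. P-values measure the spread between biological replicates as labelled.

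Genes named are the targeted genes and BHLH138, the tapetal factors, the 12 largest rises and falls among DEGs averaging 5 CPM or more whose libraries did not overlap, genes with at most 3 counts per library in one genotype and at least 10 in the other, and called members of the lists. The members and lists were chosen with earlier results of these data known. Of 585 list entries, 552 matched a gene. Alternatives were limma-voom and limma-trend (limma 3.58.1), DESeq2 1.42.0, other scalings, filters and pseudocounts, and leaving out each library. Simulated data for this contrast had 200 genes changed by a log2FC of 2, all of them above 5 CPM. There edgeR called 199 of the 200 (99.5%) and 0 others among 19832. The simulated counts were drawn with the spread that edgeR estimated from these data, with no library set apart. The 0 other calls therefore do not show the rate of false calls in the data. Recovery of smaller changes and of less abundant genes was not simulated, and 125 of the 303 DEGs averaged under 5 CPM.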

Additional observations from a re-analysis of the deposited data

Results flagged for a closer look

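In groups of 4 libraries, 11 of the 86 groups checked had 1 library far from the other 3. The limit used flags about 1 in 20 by chance for normally distributed values. Counts near 0 are not so distributed, so the 11 cannot be set against that rate. Col-0 library 4 was far above the others for SEN1 (76.3 TPM), BT5 (70.6 TPM), DIN10 (170.0 TPM) and AT3G15450 (1894 TPM). Mutant library 4 was far above the others for the peroxidase gene AT4G36430 (91.4 TPM). The remaining 6 were at low levels: PBP1 in Col-0 library 2 (0.441 TPM), AT4G11390 in Col-0 library 4 (0.318 TPM), AT1G52440 in mutant library 3 (1.51 TPM), AT1G68850 in Col-0 library 4 (0 TPM), AT3G29635 in Col-0 library 1 (0.0384 TPM) and MYB89 in Col-0 library 4 (0.443 TPM).

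The genotype effect differed between the light conditions for 4 of the 36 named genes checked, by the edgeR interaction term, where 24.1% of all genes had one. The low-light log2FC exceeded the normal-light one by 0.69 for TDF1 (adjusted p = 0.0368), by 1.08 for AT1G80440 (adjusted p = 0.0463) and by 2.32 for BT5 (adjusted p = 0.0321). For cPT9 the difference was -3.06 (adjusted p = 0.000265).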

How the results depend on the processing

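No paired analysis was possible because the columns carry their own numbers 1 to 4, which do not follow the replicate numbers of the labels. The DEGs numbered 213 (limma-trend, unfiltered, pseudocount 1) to 362 (DESeq2) across methods, of which 193 to 299 were among the 303. Leaving out 1 library at a time gave 212 (without Col-0 library 4) to 326 (without mutant library 4) DEGs, 109 to 211 higher and 103 to 149 lower. With no fold limit, 1452 genes had an adjusted p under 0.01 (836 higher, 616 lower). At an adjusted p under 0.05 the leave-one-out counts ran from 1169 to 2013 higher and from 1118 to 1956 lower, and leaving out both normal-light libraries 4, an alternative chosen after seeing the data, gave 1010 lower. The tapetal factors called fell from 2 to 1 with RLE factors, library size alone, no filter, 1 CPM in at least 1 of 16 libraries, each limma-trend setting and both libraries 4 left out, and were 1 or 2 with 1 library left out. Named genes with an interaction numbered 2 in the robust fit and 1 to 5 with 1 library left out. bHLH89 kept its call in all alternatives run, with leave-one-out log2FCs of -1.09 to -0.94. bHLH91 had -0.46 to -0.33, and lost its call with limma-trend without a filter (-0.38, adjusted p = 0.0711) and without both libraries 4 (-0.42, adjusted p = 0.061). bHLH10 was -0.0032 with limma-trend (each of 3 settings) and -0.045 to 0.093 with 1 library left out, and never called. DEGs with the same direction in low light numbered 274 to 276. Of 151 named genes, 147 were called, and 86 of these kept their call in every alternative that gave a value. Insertion lines, tissue makeup and pooled stages limit these comparisons, and genes of a few counts have no test. The cause was not tested for any of these changes.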

Other observations

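SKU5-similar genes, a family of multicopper oxidase-like proteins of the cell wall, moved in both directions: of 13 tested, SKS6 (log2FC 0.25) and SKS10 (1.81) were higher and SKS2 (-0.54), SKS13 (-3.25) and SKS14 (-3.55) were lower. SKS13 had 29.8 TPM in Col-0 library 3, the Col-0 library with the most VGD1. It had 0.881 to 4.04 TPM in the other Col-0 libraries and 0.633 to 1.68 TPM in the mutant. Without Col-0 library 3 the log2FC of SKS13 was -1.35 (edgeR adjusted p = 0.179). SKS14 was low in all 4 mutant libraries. Without mutant library 4 the family had 1 higher and 5 lower members, without Col-0 library 4 it had 1 and 3, and over all genes 9.59% were higher and 8.01% lower. The calcium pumps ACA4 (log2FC -0.55) and ACA8 (-0.41) were lower, and they are unrelated to the carbonic anhydrase ACA5. BIP3, a chaperone of the endoplasmic reticulum stress response, was higher with a log2FC of 1.4 and ROF2 lower with -0.59. The gibberellin-inactivating enzymes GA2OX2 and GA2OX6 moved apart, with log2FCs of -0.68 and 0.88, and the GA2OX2 call was lost without Col-0 library 3 or 4. JMT, the jasmonate methyltransferase, chosen after its value was seen, had 24.6, 22.5, 18.7 and 11.5 TPM in Col-0 against 52.5, 51.7, 48.9 and 48.7 TPM in the mutant (log2FC 1.4, edgeR adjusted p = 0.000182).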
